A study of Homo sapiens with 12 samples.

Results

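The genes described here are 10 secreted signals of inflammation: the chemokines CXCL8, CXCL1, CXCL2, CXCL3, CXCL6, CCL20 and CCL2, and the cytokines IL6, IL1B and LIF. They were chosen by name, and a probe set counted for a gene if the platform annotation named that gene alone. The array carried 14 such probe sets for the 10 genes, of 19775 genes named in this way over the whole table. A gene with several probe sets is represented by the brightest of them on average. A probe set was tested if its level was above log2 4 on at least 3 arrays, and 7 of the 10 genes passed: CXCL8, CXCL2, CXCL3, CCL20, CCL2, IL1B and LIF.

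The samples were HK-2 cells, an immortalized epithelial line derived from human kidney proximal tubule, grown in a medium that held EGF, hydrocortisone, insulin, transferrin and selenite. The 4 groups of 3 biological replicates were cells given a high dose of Nnm for 24 h, cells given that dose for 48 h, vehicle control cells of 24 h and vehicle control cells of 48 h. Nnm is named as the labels name it, and neither its dose nor its vehicle is specified in the sources used here. All 4 groups are a single cell line in culture, treated near confluence, so no blood or stromal cell was present by design. The labels call the replicates biological without saying whether they were separate cultures, and where they were not, the p-values measure only the spread between arrays.

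Values are GCRMA levels on the log2 scale, so a difference of 1 is a 2-fold change. Array medians lay between 2.91 and 2.98. On the first principal component, which held 57.4% of the variance, Nnm arrays 1 and 3 of both times lay from 68.6 to 87.8, both Nnm arrays numbered 2 lay at -16.1 and -19.8, and the 6 control arrays lay from -49.6 to -44.2. The Nnm arrays numbered 2 therefore stand apart from the other Nnm arrays, and changes between Nnm and control cells are given below with and without them. Of 17 kidney epithelium genes 15 had a probe set of their own. Of these, 8 were above log2 4 on all arrays, KRT18, EPCAM and PAX8 among them. Between Nnm and control cells 0 of the 8 were called at 24 h, and 1 was called higher at 48 h (adjusted p = 0.0483). Of all tested genes 6.55% were called higher at 48 h. PAX2 and the mature proximal tubule genes LRP2, CUBN, AQP1, SLC34A1, ANPEP and GGT1 were under log2 4 on all 12 arrays, so the labelled cell type rests here on those 8 genes. Of 10 leukocyte marker genes, 9 had a probe set of their own and 0 of these were above log2 4 on any array. The fibroblast list had COL1A1, DCN and LUM above log2 4 on all arrays and COL1A2, COL3A1 and PDGFRB under it on all arrays, and 0 of these genes were called between Nnm and control cells. With the replicate number as a block, which allows for a level shared by arrays of 1 number, COL1A1 was called lower at 24 h (-0.80, adjusted p = 0.0334, against 0.0729 without the block). Its part in the results was not tested. Among the kidney epithelium genes the block added KRT8 lower (-0.59, adjusted p = 0.0222) and CDH2 higher (0.46, 0.0387) at 24 h. It also added CDH1 lower at 48 h (-0.87, 0.0375). With the block 29.3% of all probe sets were called at 24 h and 22.1% at 48 h. Of the 5 endothelial markers, PECAM1 passed the filter, TEK was above log2 4 on 1 array, and VWF, CDH5 and KDR were under it throughout.

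Chemokines are small secreted proteins that draw white blood cells along a gradient. CXCL8 and its relatives CXCL1, CXCL2, CXCL3 and CXCL6 act mainly on neutrophils through CXCR2 (and CXCL8 and CXCL6 also through CXCR1), CCL20 acts through CCR6 on dendritic cells and lymphocytes, and CCL2 acts through CCR2 on monocytes. Tubule epithelium is a known source of these signals in the injured kidney. Many of the genes are switched on by the transcription factor NF-kB, and their mRNAs carry AU-rich elements that make them short-lived. IL6 and LIF signal through the shared receptor subunit gp130 to STAT3, and IL1B is cut to its active form by caspase-1 after activation of an inflammasome.

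The 5 CXC genes lie on chromosome 4, with other genes between some of them, in the order CXCL8, CXCL6, CXCL1, CXCL3 and CXCL2, while CCL20 and IL1B lie on chromosome 2, IL6 on chromosome 7, CCL2 on chromosome 17 and LIF on chromosome 22. The stretches of 140 bases just before the annotated start sites are shown because CXCL8 and CCL20 are described most fully below and because the promoters of CXCL1, CXCL2 and CXCL3 are close to one another. They come from RefSeq (GRCh38.p14), where 8 of the 10 genes had an entry, and each reads 5′ to 3′ towards the gene. The CXCL8 stretch is chr4:73740429-73740568 on the plus strand and that of CCL20 is chr2:227813702-227813841 on the plus strand. The CXCL1 stretch is chr4:73869253-73869392 on the plus strand, that of CXCL2 is chr4:74099196-74099335 on the minus strand and that of CXCL3 is chr4:74038690-74038829 on the minus strand. Capitals mark matches on either strand to GGNNNTTCC, a common form of the NF-kB element, and to TGANTCA, the AP-1 element.
CXCL8: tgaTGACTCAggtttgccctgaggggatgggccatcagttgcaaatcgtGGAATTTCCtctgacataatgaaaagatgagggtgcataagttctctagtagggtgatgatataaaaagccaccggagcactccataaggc
CCL20: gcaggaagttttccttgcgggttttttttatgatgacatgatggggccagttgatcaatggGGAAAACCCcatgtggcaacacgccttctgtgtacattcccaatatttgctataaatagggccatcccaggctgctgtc
CXCL1: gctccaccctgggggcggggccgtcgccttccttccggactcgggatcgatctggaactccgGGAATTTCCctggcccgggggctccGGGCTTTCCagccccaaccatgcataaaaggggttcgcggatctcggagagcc
CXCL2: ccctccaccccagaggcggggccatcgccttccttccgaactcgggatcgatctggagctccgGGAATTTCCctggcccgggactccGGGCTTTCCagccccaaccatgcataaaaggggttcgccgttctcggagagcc
CXCL3: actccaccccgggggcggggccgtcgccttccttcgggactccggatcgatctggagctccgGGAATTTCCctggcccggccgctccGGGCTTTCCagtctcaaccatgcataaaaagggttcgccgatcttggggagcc
CXCL1 and CXCL2 were identical in 91.5% of aligned positions over this stretch, CXCL1 and CXCL3 in 90.7%, and CXCL1 and CXCL8 in 44.8%. In the 250 bases before the start, 7 of the 8 genes held GGNNNTTCC (IL1B held none), against 17.1% of the 35116 promoters in the table. CXCL1, CXCL2 and CXCL3 share most of this stretch, so their matches do not count separately. Many of the genes are known NF-kB targets, so the contrast is a description and no test. The longer run GGGAATTTCC was taken from the CXCL1 promoter, so its match there was fixed in advance. It was also in CXCL2 and CXCL3, whose stretches are close to that of CXCL1, and in CXCL6, against 0.142% of all promoters. TGANTCA was in CXCL8 alone among the 8, beginning 137 bases before its start, against 6.57% of all promoters. These matches describe the letters of the window and do not show that a factor was bound.

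**Figure D1:**
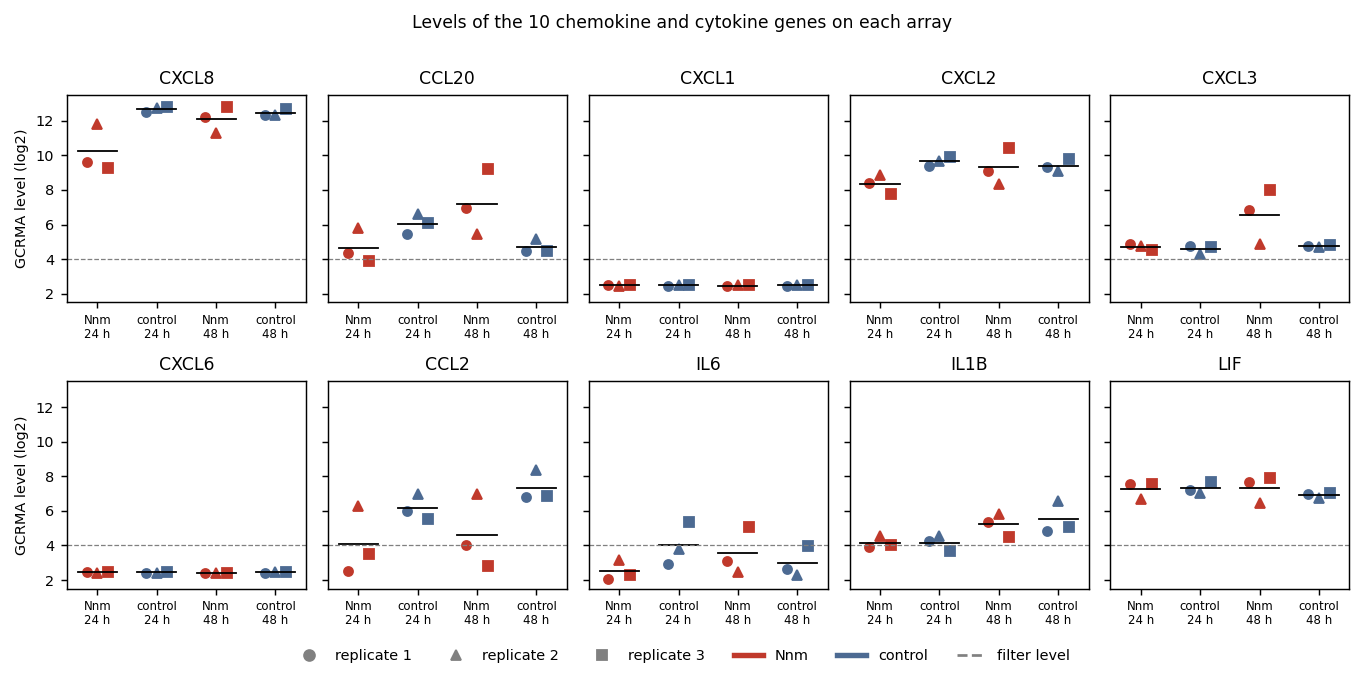
GCRMA levels (log2, vertical axis) of the 10 genes on each of the 12 arrays, by group (horizontal axis), with Nnm left of its control at each time. Marker shape gives the replicate number, black bars the means of 3 arrays and the dashed line the filter level of 4; CXCL1 and CXCL6 lie near 2.5 on every array, and the Nnm arrays numbered 1 and 3 lie apart from the Nnm arrays numbered 2 for CXCL8 at 24 h and for CXCL3 at 48 h.

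Nnm against control at 24 h. CXCL8, the main neutrophil attractant of epithelial cells, fell in Nnm cells. Its level was 9.62, 11.83 and 9.25 in Nnm replicates 1, 2 and 3, against 12.50, 12.73 and 12.80 in control replicates 1, 2 and 3. All 3 Nnm arrays lay under all 3 control arrays, with Nnm replicate 2 nearest to them. The means were 10.24 ± 1.40 in Nnm cells and 12.68 ± 0.16 in control cells (SD, n = 3 each), a log2 change of -2.44 ± 0.58 (SE, 95% interval -3.74 to -1.15, adjusted p = 0.0271), or 5.43-fold. The other CXCL8 probe set, which correlated with the first at r = 0.987 over the 12 arrays, fell by 2.60 on the log2 scale (adjusted p = 0.0277). Since each array measured bulk RNA, fewer cells making CXCL8 and less CXCL8 RNA per cell cannot be told apart.

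The call of CXCL8 depended on the arrays used. Its change was -2.13 without Nnm replicate 1 (adjusted p = 0.115), -1.95 without Nnm replicate 3 (0.102), and -2.53, -2.41 and -2.38 without control replicate 1, 2 or 3 (0.0750, 0.0583 and 0.101). Without Nnm replicate 2 it was -3.24 (adjusted p = 0.00053). With only the 6 arrays of 24 h, its adjusted p was 0.0867, 0 of the 7 genes were called and 0.491% of all probe sets were, and with no filter on low values it was 0.0905.

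CXCL8 was the 1 call among the 7 tested genes at 24 h in the main fit, which held no block. In that fit 14.7% of all 22829 tested probe sets were called (7.42% lower and 7.32% higher), so 1 of 7 is near the background. With the replicate block 2 of 7 were called, CXCL8 and CCL2, where 29.3% of all probe sets were. The median change of the 7 was -1.31, against -0.005 over all 10963 tested genes. In 2 of the 7 genes, CXCL8 and CXCL2, the Nnm arrays lay wholly under the control arrays, where 18.9% of all tested probe sets did so.

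CXCL2, a neutrophil attractant close to CXCL1, had levels of 8.38, 8.88 and 7.75 in Nnm replicates 1, 2 and 3, against 9.37, 9.68 and 9.91 in the controls. The groups did not overlap, but the difference of -1.31 ± 0.47 (SE, interval -2.35 to -0.27) did not pass over all probe sets (adjusted p = 0.0783). Without both Nnm arrays numbered 2 it was -1.58. The leading CXCL2 probe set, like that of CXCL8, is of a type (x_at) whose probes may also match close relatives. The other CXCL2 probe sets lay between 2.53 and 2.95 on all arrays. CXCL3, a close relative of CXCL1 and CXCL2, stood at 4.90, 4.79 and 4.51 in Nnm cells, against 4.78, 4.29 and 4.72 in control cells, and the groups overlapped (adjusted p = 0.891). CXCL1 lay between 2.47 and 2.52 and CXCL6 between 2.42 and 2.48 over all 12 arrays, under the filter level everywhere.

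CCL20 measured 4.33, 5.81 and 3.89 in Nnm cells, against 5.43, 6.63 and 6.08 in control cells. Each Nnm array was under the control array of the same number, while the groups overlapped, and the difference of -1.37 ± 0.81 (SE) did not pass (adjusted p = 0.250). Without both Nnm arrays numbered 2 it was -1.94. CCL2, the monocyte attractant, measured 2.53, 6.29 and 3.51 in Nnm replicates 1, 2 and 3, against 5.99, 6.95 and 5.54 in control cells. Nnm replicates 1 and 3 lay under every control array and under the filter level, and Nnm replicate 2 lay within the control range. The change of -2.05 was not called in the fit without a block (SE 1.12, adjusted p = 0.213) and was called with the replicate number as a block (SE 0.57, adjusted p = 0.0325), where 29.3% of all probe sets were called. Nnm replicates 1 and 3 averaged 3.02, under the filter level, against 6.16 in control cells. In these arrays alone CCL2 was at least 4.46-fold lower, counted against log2 4. Over all 3 Nnm arrays it was 4.13-fold lower. Nnm replicate 2 was set aside for its values, so 4.46-fold is no lower bound on the Nnm effect.

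The 3 cytokines had no call at 24 h. IL1B measured 3.93, 4.52 and 4.03 in Nnm cells, against 4.24, 4.52 and 3.70 in control cells, close to the filter level in both groups (change 0.0045, interval -1.02 to 1.03). LIF, a gp130 cytokine, measured 7.54, 6.71 and 7.57 in Nnm cells, against 7.23, 7.06 and 7.65 in control cells (change -0.04, interval -0.84 to 0.76). IL6 was above log2 4 on 2 of 12 arrays and was not tested, with 2.05, 3.18 and 2.27 in Nnm cells, against 2.95, 3.80 and 5.35 in control cells. Its 1 control value above the filter was that of replicate 3.

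Nnm against control at 48 h. At this time 0 of the 7 genes were called by limma in the main fit, where 10.2% of all probe sets were called (5.74% higher and 4.44% lower). In that fit 3 had an unadjusted p under 0.05, CCL20, CXCL3 and CCL2. With the replicate block 2 of 7 were called, CXCL3 and CCL2, where 22.1% of all probe sets were. CCL20 and CXCL3 were the 2 of 7 genes with all Nnm arrays above all control arrays, as were 18.7% of tested probe sets. The median change of the 7 was -0.09, against 0.022 over all tested genes.

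CCL20 stood at 6.98, 5.44 and 9.19 in Nnm replicates 1, 2 and 3, against 4.47, 5.19 and 4.49 in control cells. The rank order of the groups was thus complete, yet Nnm replicate 2 exceeded the highest control array by little, while replicates 1 and 3 were far above. The change was 2.49 ± 0.81 (SE, interval 0.68 to 4.29, adjusted p = 0.0746), and it was 3.37 without both Nnm arrays numbered 2. CXCL3 showed the same arrangement, with 6.84, 4.85 and 7.98 in Nnm cells, against 4.78, 4.68 and 4.81 in control cells. Its change was 1.80 ± 0.59 (SE, interval 0.50 to 3.10, adjusted p = 0.0738). With the replicate block CXCL3 was called (SE 0.54, adjusted p = 0.0464), where 11.9% of probe sets were called higher, and without both Nnm arrays numbered 2 its change was 2.65.

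CXCL8 at 48 h measured 12.21, 11.28 and 12.80 in Nnm cells, against 12.31, 12.35 and 12.66 in control cells. The groups overlapped, and Nnm replicate 2 was the lowest array of the 6. Its change was -0.34, with an interval of -1.64 to 0.95 (adjusted p = 0.726), so that values on either side of 0 are within the error. CXCL2 measured 9.12, 8.37 and 10.45 in Nnm cells, against 9.31, 9.09 and 9.81 in control cells, with the highest and the lowest value both in Nnm cells (adjusted p = 0.920).

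CCL2 measured 4.01, 6.96 and 2.84 in Nnm cells, against 6.78, 8.37 and 6.85 in control cells. Each Nnm array was under the control array of its number, by 2.77, 1.41 and 4.01 on the log2 scale, while Nnm replicate 2 lay above 2 of the control arrays. The change of -2.73 (interval -5.21 to -0.26) had an adjusted p of 0.131 without a block (SE 1.12) and 0.0164 with the replicate block (SE 0.57), where 22.1% of all probe sets were called. Nnm replicates 1 and 3 averaged 3.42, against 7.33 in control cells. In these arrays alone CCL2 was at least 10.1-fold lower, counted against log2 4. Over all 3 Nnm arrays it was 6.64-fold lower. Nnm replicate 2 was set aside for its values, so 10.1-fold is no lower bound on the Nnm effect. The effect at 48 h minus that at 24 h was -0.68, with a wide interval (-4.19 to 2.82).

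IL1B measured 5.35, 5.83 and 4.52 in Nnm cells, against 4.86, 6.58 and 5.07 in control cells, with overlap (adjusted p = 0.724). The other IL1B probe set, correlated with the first at r = 0.869 over the 12 arrays, gave -0.39 at 24 h and -0.43 at 48 h and was not called. LIF measured 7.68, 6.46 and 7.88 in Nnm cells, against 6.96, 6.76 and 7.00 in control cells. Nnm replicates 1 and 3 were above all controls and Nnm replicate 2 below all of them, and the change of 0.43 was not called (adjusted p = 0.443). Without both Nnm arrays numbered 2 it was 0.87. IL6 measured 3.10, 2.47 and 5.04 in Nnm cells, against 2.66, 2.31 and 3.95 in control cells, above the filter level in Nnm replicate 3 alone. Without both Nnm arrays numbered 2, the remaining changes were 0.06 for CXCL8 and 0.38 for CXCL2 at 48 h, 0.11 for CXCL3 and 0.24 for LIF at 24 h, and -0.18 at 24 h and -0.57 at 48 h for IL1B, and none of these was called.

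**Figure D2:**
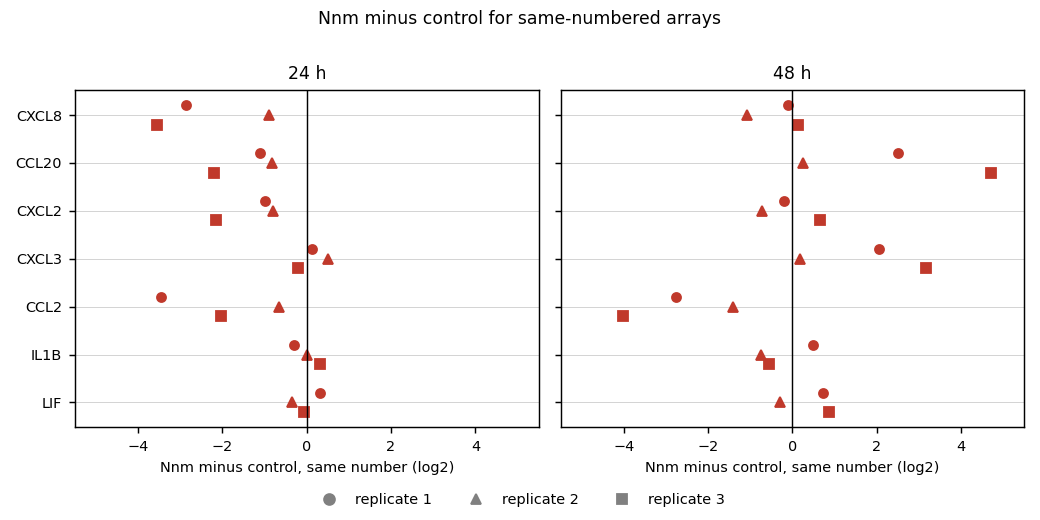
Nnm minus control for arrays of the same replicate number (log2, horizontal axis), for the 7 tested genes (rows) at 24 h (left) and 48 h (right). Marker shape gives the number; CCL20 lies under 0 in all 3 pairs at 24 h and above 0 in all 3 at 48 h, and CCL2 lies under 0 in all 6.

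Change between 24 h and 48 h. In Nnm cells the 48 h mean was above the 24 h mean in all 7 tested genes, against 5462 of all 10963 tested genes. Limma called 0 of the 7, and 0% of all probe sets, while 4 of the 7 had an unadjusted p under 0.05 (CXCL8, CCL20, CXCL3 and IL1B). These comparisons share the Nnm arrays with those above and are not separate evidence. CXCL8 averaged 12.10 ± 0.76 at 48 h and 10.24 ± 1.40 at 24 h (SD, n = 3 each), a difference of 1.86 (interval 0.56 to 3.16, adjusted p = 0.255). By number it was 2.59, -0.55 and 3.54 higher at 48 h in Nnm replicates 1, 2 and 3.

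CCL20 averaged 7.20 ± 1.89 at 48 h and 4.68 ± 1.00 at 24 h in Nnm cells (SD, n = 3 each), with differences of 2.65, -0.37 and 5.30 in Nnm replicates 1, 2 and 3 (adjusted p = 0.256). CXCL3 averaged 6.56 ± 1.58 at 48 h and 4.73 ± 0.20 at 24 h, with differences of 1.94, 0.07 and 3.46 (adjusted p = 0.256). CXCL2 averaged 9.32 ± 1.05 at 48 h and 8.34 ± 0.56 at 24 h, with differences of 0.74, -0.51 and 2.70 (adjusted p = 0.389). For these 4 chemokines the later time was higher in Nnm replicates 1 and 3, most so in replicate 3, and lower or nearly equal in replicate 2.

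In control cells 0 of the 7 were called and 1 had an unadjusted p under 0.05, again with 0% of all probe sets called. CCL20 was at 4.47, 5.19 and 4.49 in the 48 h controls, against 5.43, 6.63 and 6.08 in the 24 h controls, and LIF was at 6.96, 6.76 and 7.00, against 7.23, 7.06 and 7.65. These are the 2 of 7 genes whose 48 h controls lay wholly under the 24 h controls, as did 12.1% of probe sets. IL1B was at 4.86, 6.58 and 5.07 in the 48 h controls, against 4.24, 4.52 and 3.70 in the 24 h controls, without overlap, as 11.2% of probe sets were higher in this way (adjusted p = 0.522). CXCL8 (-0.24) and CXCL3 (0.16) differed little between control times relative to their SE of 0.58 and 0.59.

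The Nnm effect at 48 h minus that at 24 h was 3.86 ± 1.15 (SE) for CCL20, 2.10 ± 0.83 for CXCL8, 1.66 ± 0.83 for CXCL3 and 1.22 ± 0.66 for CXCL2. Each had an adjusted p of 0.780, and 0 of 7 genes and 0% of probe sets were called, while CCL20 and CXCL8 had an unadjusted p under 0.05. CCL20 was the 1 tested gene that was lower than its same-numbered control in all 3 pairs at 24 h and higher in all 3 at 48 h, which held for 1.26% of all tested probe sets. A lower control level at 48 h takes part in that difference, since the control mean of CCL20 was 4.72 ± 0.41 at 48 h and 6.05 ± 0.60 at 24 h (SD, n = 3 each). Without both Nnm arrays numbered 2, the difference of effects was 5.31 for CCL20, 3.30 for CXCL8, 2.54 for CXCL3 and 1.96 for CXCL2. In that fit 4 of the 7 genes were called at 24 h (47% of all probe sets), 4 at 48 h (42.1%), 4 between the times in Nnm cells (21.8%) and 3 for the difference of effects (11.2%). Since the omitted arrays were singled out by their values, which resemble the controls, these calls are no test of the genes.

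**Figure D3:**
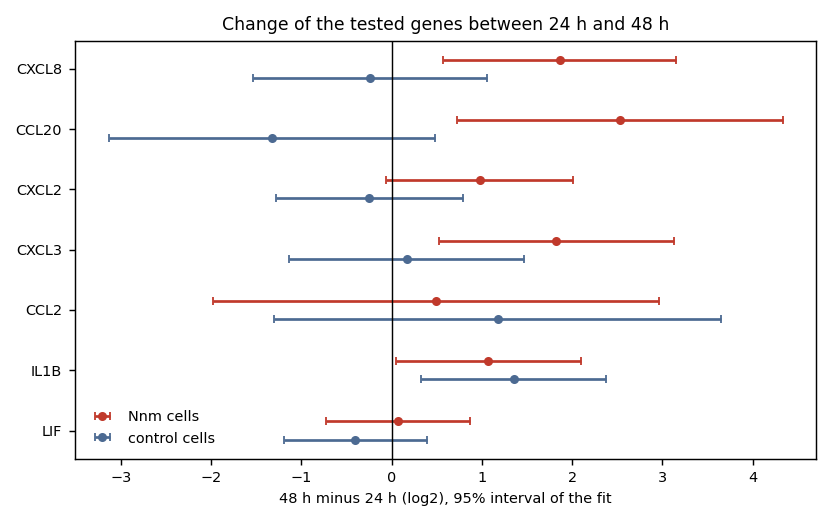
Log2 difference of 48 h minus 24 h (horizontal axis) for the 7 tested genes (rows), in Nnm cells (upper, red) and in control cells (lower, blue), with 95% intervals of the fit over 12 arrays. The Nnm points of CXCL8, CCL20, CXCL3 and IL1B have intervals above 0, and so has the control point of IL1B.

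The 4 group means of CXCL8 ranked as 24 h control (12.68), 48 h control (12.44), 48 h Nnm (12.10) and 24 h Nnm (10.24), and no neighbouring pair in this order differed beyond its error by the adjusted test. For CCL20 the order was 48 h Nnm, 24 h control, 48 h control and 24 h Nnm. For CCL2 it was 48 h control, 24 h control, 48 h Nnm and 24 h Nnm. Over the 12 arrays, which share groups and replicate numbers, CXCL8 correlated with CXCL2 at r = 0.882, both by probe sets of the x_at type. CCL20 correlated with CXCL3 at r = 0.790, while CCL2 and LIF correlated at r = -0.830. Among tested genes outside the 10, the patterns most like that of CXCL8 by Pearson's r over the 12 arrays were MOV10 (0.948), ELOVL6 (0.947) and C6orf47 (0.942).

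Other ligands. Of 28 further chemokine genes, 26 had a probe set and 4 were tested, CCL28, CXCL16, CXCL5 and CX3CL1. CCL28, a mucosal chemokine, and CXCL16, a membrane-anchored one, rose at both times. CCL28 averaged 6.71 ± 0.42 in Nnm cells and 5.06 ± 0.21 in control cells at 24 h (adjusted p = 0.00906), and 7.76 ± 0.29 in Nnm cells and 5.92 ± 0.22 in control cells at 48 h (adjusted p = 0.00496, SD, n = 3 each). CXCL16 rose by 0.68 at 24 h and 1.01 at 48 h on the log2 scale, and the Nnm arrays, replicate 2 included, lay above all controls for both genes at both times. CXCL5 and CX3CL1 were not called at either time without the block. With the replicate block CX3CL1, a membrane-anchored attractant, was called higher at 48 h (0.41, adjusted p = 0.0407, against 0.380 without it).

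Of 25 further cytokine genes 11 were tested, of which 2 rose and 1 fell at 24 h and 2 rose at 48 h. Among all tested genes 8.31% rose and 8.21% fell at 24 h, and 6.55% rose and 4.27% fell at 48 h. With the replicate block the counts were 2 higher and 2 lower at 24 h, and 4 higher and 2 lower at 48 h. With that block 29.3% of all probe sets were called at 24 h and 22.1% at 48 h. IL7, a survival factor of lymphocytes, averaged 6.28 ± 0.71 in Nnm cells and 4.38 ± 0.26 in control cells at 24 h, and 6.76 ± 0.76 in Nnm cells and 4.69 ± 0.11 in control cells at 48 h (adjusted p = 0.0190 and 0.0163). IL15 rose by 1.00 at 24 h (adjusted p = 0.0272) and IL18, an inflammasome-processed relative of IL1B, by 0.78 at 48 h (adjusted p = 0.0496). TGFB2 fell at 24 h, to 7.16 ± 0.44 in Nnm cells, against 8.29 ± 0.33 in control cells (adjusted p = 0.0264). The calls that the block added were IL32 at both times (-1.12 and -0.96, adjusted p = 0.0250 and 0.0428), and MIF (-0.35, 0.0484), IL15 (0.60, 0.0366) and TGFB1 (1.04, 0.0285) at 48 h. TNF and IL1A, classic triggers of chemokine expression, were under log2 4 on all arrays.

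Receptors and signalling. The chemokine receptors CXCR1, CXCR2, CCR2 and CCR6 were under log2 4 on all 12 arrays, as was the IL1 antagonist IL1RN. Of 15 receptor and antagonist genes 8 were tested, and 3 rose at 24 h and 1 at 48 h, while 0 fell. The shares of all tested genes were 8.31% higher and 8.21% lower at 24 h, and 6.55% higher and 4.27% lower at 48 h. IL1R1, the signalling receptor of IL1B, stood at 9.00, 7.60 and 9.04 in Nnm replicates 1, 2 and 3 at 24 h, against 5.91, 6.23 and 5.72 in control cells. At 48 h it stood at 8.40, 7.88 and 8.47 in Nnm cells, against 6.10, 6.91 and 6.34 in control cells. All Nnm arrays were above all controls at both times, and IL1R1 rose by 2.59 and 1.81 (adjusted p = 0.00912 and 0.0201). At 24 h the LIF receptor LIFR rose by 1.67 (adjusted p = 0.0305) and the gp130 gene IL6ST by 0.57 (adjusted p = 0.0161). At 48 h LIFR differed by 0.38 (adjusted p = 0.580) and IL6ST by 0.38 (0.0521, and 0.0334 with the replicate block).

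Of 13 tested genes of the NF-kB core pathway 1 rose and 1 fell at 24 h and 0 were called at 48 h, with medians of 0.11 and 0.10. The shares of all tested genes were 8.31% higher and 8.21% lower at 24 h, and 6.55% higher and 4.27% lower at 48 h. The subunit gene REL rose by 1.17 (adjusted p = 0.0168) and IKBKG, the regulatory part of the kinase complex that frees NF-kB, fell by 0.64 (adjusted p = 0.0132). With the replicate block MAP3K14, the kinase of the non-canonical branch, was also called higher at 24 h (0.75, adjusted p = 0.0478). Of 11 tested feedback and target genes 0 were called at 24 h and 1 rose at 48 h, and with the replicate block 1 and 3 were called higher. With that block 3252 of all 22829 tested probe sets were called higher at 24 h and 2722 at 48 h. The gene called without the block was NFKBIA, the inhibitor that NF-kB induces against itself, at 11.36, 11.45 and 11.95 in Nnm cells, against 10.68, 10.75 and 10.68 in control cells (adjusted p = 0.0272). The block added TNFAIP2 at both times (0.57 and 0.68, adjusted p = 0.0477 and 0.0346) and IRF1, a transcription factor of interferon responses, at 48 h (1.41, 0.0427). CYLD, a deubiquitinase of the pathway, differed by 0.88 at 24 h (adjusted p = 0.0680). Of the inflammasome list 2 of 5 genes were tested and 0 called, with GSDMD at -0.72 and PYCARD at -0.84 at 24 h (adjusted p = 0.0609 and 0.108).

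Of 11 gp130 and STAT3 pathway genes 2 rose and 1 fell at 24 h and 1 rose at 48 h. Among all tested genes 8.31% rose and 8.21% fell at 24 h, and 6.55% rose and 4.27% fell at 48 h. The kinase gene JAK2 averaged 6.10 ± 0.97 in Nnm cells and 3.64 ± 0.28, under the filter level, in control cells at 24 h, at least 4.28-fold higher (adjusted p = 0.0196). BCL6, a repressor induced by STAT signalling, rose by 1.44 and 0.96 at 24 h and 48 h (adjusted p = 0.00897 and 0.0214), and the kinase gene TYK2 fell by 1.06 at 24 h (adjusted p = 0.0303). With the replicate block the kinase gene PIM1 was called higher at 24 h (1.42, adjusted p = 0.0328) and SOCS3, a feedback inhibitor of gp130 signalling, lower at 48 h (-0.71, adjusted p = 0.0170). Of 8 tested genes that control cytokine mRNA stability, 2 rose and 1 fell at 24 h and 1 rose at 48 h. The shares of all tested genes given above apply here too. DUSP1, a phosphatase that dampens p38 signalling, rose by 0.93 and 1.05 (adjusted p = 0.0274 and 0.0217). ZFP36L2, which binds AU-rich elements and promotes decay, rose by 1.45 at 24 h (adjusted p = 0.0359) and HNRNPD, another AU-binding protein gene, fell by 0.97 (adjusted p = 0.0446). At 48 h ZFP36L2 and HNRNPD stood at 1.28 and -0.82 (adjusted p = 0.0603 and 0.0851, and 0.0304 and 0.0439 with the block).

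Over these 8 lists, 12 of 68 tested genes rose and 4 fell at 24 h, and 8 rose and 0 fell at 48 h. Over all tested genes 8.31% rose and 8.21% fell at 24 h, and 6.55% rose and 4.27% fell at 48 h. The lists were drawn up with earlier results of these data known, so setting these counts side by side is no test of the lists. With the replicate block the counts were 15 higher and 5 lower at 24 h and 15 higher and 4 lower at 48 h. With that block 3252 of all 22829 tested probe sets were called higher and 3448 lower at 24 h. At 48 h it called 2722 higher and 2324 lower. Single arrays decided many of these calls. Of the 16 at 24 h, 1, 16 and 3 remained without Nnm replicate 1, 2 or 3, and 4, 12 and 0 without control replicate 1, 2 or 3. Of the 8 at 48 h, 2, 8 and 1 remained without Nnm replicate 1, 2 or 3, and 2, 4 and 3 without control replicate 1, 2 or 3. CCL28 at 48 h was called in all 6 of these fits (highest adjusted p = 0.0301). Of the 24 calls of both times, 2 remained with only the 6 arrays of the comparison and 7 with no filter on low values. With the stricter filter 21 remained, with quantile normalization 23 and with the replicate block 24.

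**Figure D4:**
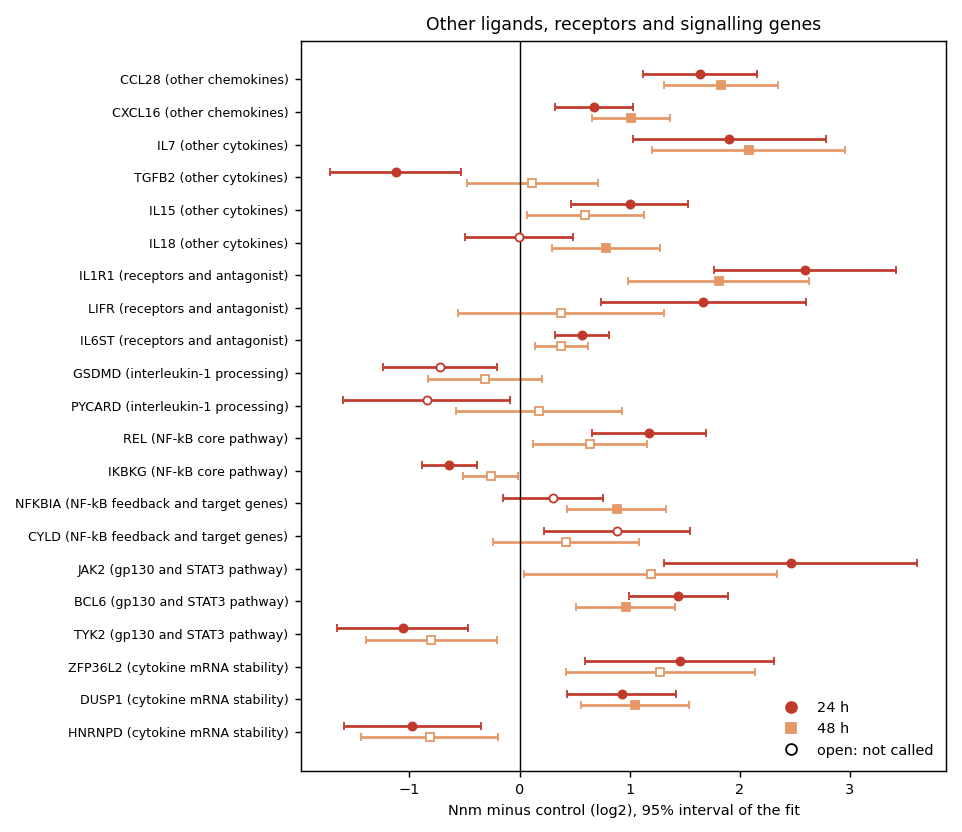
Nnm minus control (log2, horizontal axis) with 95% intervals of the fit over 12 arrays, for the 21 named ligand, receptor and signalling genes (rows, with their list), at 24 h (circles) and 48 h (squares). Filled markers passed an adjusted p of 0.05; IL1R1 and JAK2 at 24 h lie furthest right, and TGFB2, TYK2, HNRNPD and IKBKG are the filled markers left of 0 at 24 h.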

How the data were processed

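HK-2 cells were profiled on 12 Affymetrix arrays, 1 sample each. The deposited values are on the log2 scale, 1 for each probe set on each array. The submitters' processing notes name GCRMA. GCRMA corrects background from probe sequence and normalizes between arrays, which removes any change that most genes share. The arrays it was run over are not stated in those notes. Detection calls were not used, and the precision is limited by the number of arrays.

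Of 54675 probe sets, 62 control probe sets were left out and 22829 were tested. One limma 3.58.1 fit (R 4.3.3) held all 4 groups with 8 residual degrees of freedom. This main fit held no block, because the labels do not say that a replicate number marks a shared batch. Calls required a Benjamini-Hochberg adjusted p under 0.05 over all tested probe sets, and every adjusted p is limma's. The method was tested on simulated data. Where a group's mean was under log2 4, a fold is a lower bound against 4. Symbols were updated through RefSeq.

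The 10 genes and all lists were chosen with earlier results of these data known. From each further list up to 4 called genes with the largest change were named, or, in a list with fewer than 2 calls, enough of those with the lowest p to make 2, and the 3 genes most like each called member. CXCL5, CX3CL1, TNF, IL1A, single arrays and genes named for a call with the replicate block were chosen once their values were known. The numbers pair the samples by a check on the data, not by the labels: all 18 correlations of deviations between arrays that share a number were above 0.1 (0.162 to 0.669), against a median of -0.208 for other numbers. Deviations were taken from each group's mean, so positive values for shared numbers push the other numbers under 0. The median of -0.208 is thus no separate baseline. The main fit leaves this pairing out, so its counts and intervals do not use it, and calls with the replicate block are given beside them. Alternatives were the replicate block, fewer arrays, other filters, spread models, array weights, quantile normalization and means of probe sets.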

Additional observations from a re-analysis of the deposited data

Results flagged for a closer look

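IL6 lay under its same-numbered control in all 3 pairs at 24 h and above it in all 3 at 48 h, and its mean Nnm minus control difference was 2.10 higher at 48 h than at 24 h. This drew attention because the pairs had opposite signs at the 2 times, as did, in the same order, 0.597% of all probe sets other than control probe sets. IL6 was above log2 4 on 2 of 12 arrays, so most of these differences lie at the floor of the measurement and their signs have no firm meaning there. The difference was not tested in the fit for that reason, and with no filter it had an adjusted p of 0.705.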

How the results depend on the processing

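The number of the 10 genes called moved with the arrays and the model. At 24 h it was 2 with the replicate block (CXCL8 and CCL2), 0 with only the 6 arrays compared, 0 with no filter, 4 with array weights and 4 without both Nnm arrays numbered 2, against 1. At 48 h it was 2 with the replicate block (CXCL3 and CCL2), 4 with array weights and 4 without both Nnm arrays numbered 2, against 0. Between 48 h and 24 h in Nnm cells it was 4 in each of these last 2 settings, and for the difference of Nnm effects 4 with array weights and 3 without both arrays, against 0 in both comparisons. With array weights 12093 of all 22829 tested probe sets were called at 24 h and 11202 at 48 h. The 4 of 7 genes called at these times are therefore near the background of that fit. The probe sets called, against 3366 at 24 h and 2323 at 48 h, numbered 6700 and 5046 with the replicate block, 112 and 115 with only the 6 arrays, 848 and 842 with no filter, 12093 and 11202 with array weights, and 10730 and 9605 without both Nnm arrays numbered 2. Against 0 between the times in Nnm cells there were 16 with no filter, 7850 with array weights and 4985 without both arrays. In control cells there were 12 with the replicate block, 4 with only the 6 arrays, 1 with no filter, 1 with the stricter filter, 94 with array weights and 26 without both Nnm arrays, and for the difference of effects 2 with no filter, 3899 with array weights and 2556 without both. Leaving out 1 array gave 0 to 3 genes and 81 to 8683 probe sets at 24 h, 0 to 4 and 207 to 6117 at 48 h, 0 to 2 and 0 to 3683 between times in Nnm cells, 0 to 0 and 0 to 2 in control cells, and 0 to 1 and 0 to 1028 for the difference. Of 1134 refitted gene results 921 kept their side of the threshold, 78 passed only in the alternative, 135 no longer passed, and 0 called values changed sign. Beyond the values given in the report, the replicate block changed no call of the 7 tested genes. Signals near the floor limit CXCL1, CXCL6, IL6 and IL1B, and the causes of these changes were not tested.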
